A study of Homo sapiens with 6 samples.

Results

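The genes described here encode the respiratory chain and ATP synthase of the mitochondrion. They were chosen by name from the 19491 genes of the deposited tables: the mitochondrially encoded MT-ND, MT-CO, MT-CYB and MT-ATP genes, and the nuclear NDUFA, NDUFB, NDUFC, NDUFS, NDUFV, SDH, UQCR, COX4 to COX8 and ATP5 families. After 14 pseudogenes were left out, 94 genes remained, of which 13 are encoded by mitochondrial DNA (mtDNA) and 81 by the nucleus. By complex, complex I had 7 mitochondrial and 39 nuclear members, complex II had 4 nuclear members, complex III had 1 and 8, complex IV had 3 and 13, and complex V had 2 and 17. The name rule also took in 5 genes that are not subunits of the assembled chain, namely the antisense RNA NDUFA6-AS1 and the genes NDUFA4L2, COX7A2L, ATP5S and ATP5SL. It missed subunits with other names, such as CYC1 of complex III and NDUFAB1 of complex I. The gene names are those of the files, so that ATP5D, for example, is the gene now called ATP5F1D.

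Complexes I and II pass electrons from NADH and succinate to ubiquinone, complex III passes them to cytochrome c, and complex IV passes them to oxygen. Complexes I, III and IV pump protons across the inner mitochondrial membrane, and complex V uses the gradient to make ATP. All of these except complex II are built from proteins of both genomes. The mitochondrial genes are transcribed from mtDNA as long precursors that are cut at the tRNAs between them, whereas the nuclear genes are transcribed singly, many of them under the factors NRF1 and GABP.

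PC-3 cells, an established androgen-independent line derived from human prostate cancer, were cultured for 48 h without a compound (control), with 1 mM GPNA or with 10 mM BenSer. Both compounds inhibit ASCT2 (SLC1A5), a transporter that brings glutamine into the cell, and the question was how gene expression in this 1 line responded. The paper also reports lower leucine uptake with BenSer, states that BenSer inhibits the leucine transporter LAT1 in oocytes, and proposes effects beyond ASCT2. Stranded libraries of total RNA were sequenced, and the labels name 2 libraries per group and 6 in all, with no agent or allele shared by the groups beyond the medium. Depth ranged from 23077986 to 32178154 reads per library, of which 51.6% to 52.7% fell on listed genes.

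Values are counts per 1000000 reads of the library (CPM). Differences are in log2(CPM + 1), which understates the change of genes near 1 CPM. Over all genes the libraries of each group were nearly as alike as repeated draws of reads: chi-square divided by its degrees of freedom was 1.06 in control, 1.05 in GPNA and 1.05 in BenSer libraries, whereas pairs from different groups gave 5.50 to 20.7. Each group was thus treated as 1 sample, no p-value is given for an effect of a compound, and intervals are 95% counting intervals on the merged reads that do not cover variation between cultures. Over the members alone the same quotient was 1.38 for control libraries, 0.946 for GPNA libraries and 0.917 for BenSer libraries. A gene was called higher or lower at a difference of at least 1.2-fold on the log2(CPM + 1) scale. All 94 members passed the filter on low values, a mean of 5 reads or more in one of the groups compared.

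The epithelial markers KRT8, KRT18, KRT19, EPCAM and CDH1 were all listed, with summed levels of 1245 and 1258 CPM in control cells, 1245 and 1247 CPM with GPNA and 1366 and 1366 CPM with BenSer. Singly they went both ways. With GPNA, in the order named, they differed by -0.20, -0.15, 0.09, -0.08 and 0.08. With BenSer they differed by -0.07, -0.24, 0.22, 0.01 and 0.49. Of the luminal prostate markers KLK2, KLK3 and TMPRSS2, only TMPRSS2 was listed, at 16.6 and 16.4 CPM in control cells, 18 and 17.2 CPM with GPNA and 24.0 and 24.3 CPM with BenSer. It was higher with BenSer, at 0.52 (0.40 to 0.64). Of 3 fibroblast markers COL1A1 alone was listed, at 6.07 and 5.07 CPM in control cells, 3.80 and 3.65 CPM with GPNA and 3.85 and 5.07 CPM with BenSer. It was lower with both, at -0.48 (-0.70 to -0.25) with GPNA and -0.27 (-0.47 to -0.06) with BenSer. The part of these differences in the values below was not tested.

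Before any treatment, the mitochondrially encoded subunits of complex IV had the highest levels per length. The median of MT-CO1, MT-CO2 and MT-CO3 was 2752 CPM per kb of transcript in the control, and MT-CO2 led with 3107 CPM per kb. The single mitochondrial subunit of complex III, MT-CYB, had 268 CPM per kb, the 2 of complex V had a median of 115 CPM per kb and the 7 of complex I had a median of 104 CPM per kb. Nuclear subunits had lower medians in every complex with both kinds, and their medians were 61.7 CPM per kb for complex IV, 42.3 for complex V, 36.4 for complex II, 32.3 for complex III and 20.7 for complex I. Within each complex the nuclear subunits spanned a wide range, for example from 0.331 to 129.6 CPM per kb in complex I. The highest nuclear subunits were ATP5B, the catalytic beta subunit of ATP synthase, with 162 CPM per kb, and UQCRH, the hinge protein of complex III, with 148 CPM per kb. NDUFB6 had no transcript length in the annotation used and is left out of these values. Nuclear lengths are those of 1 canonical transcript per gene, so the order and range depend on that choice. UQCRB, at 254 CPM, had 30.0 CPM per kb over 8459 bases. NDUFA9, the lowest of complex I, was divided by 8356 bases. Other transcript lengths were not tried. For the mitochondrial genes, how reads that also match nuclear copies of mtDNA were assigned is not given in the sources used here. The listed copies were all of MT-ND genes, for example MTND5P28 at 0.646 and 0.737 CPM in control cells. Their bearing on the gap between MT-CO and MT-ND genes was not tested.

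**Figure D1:**
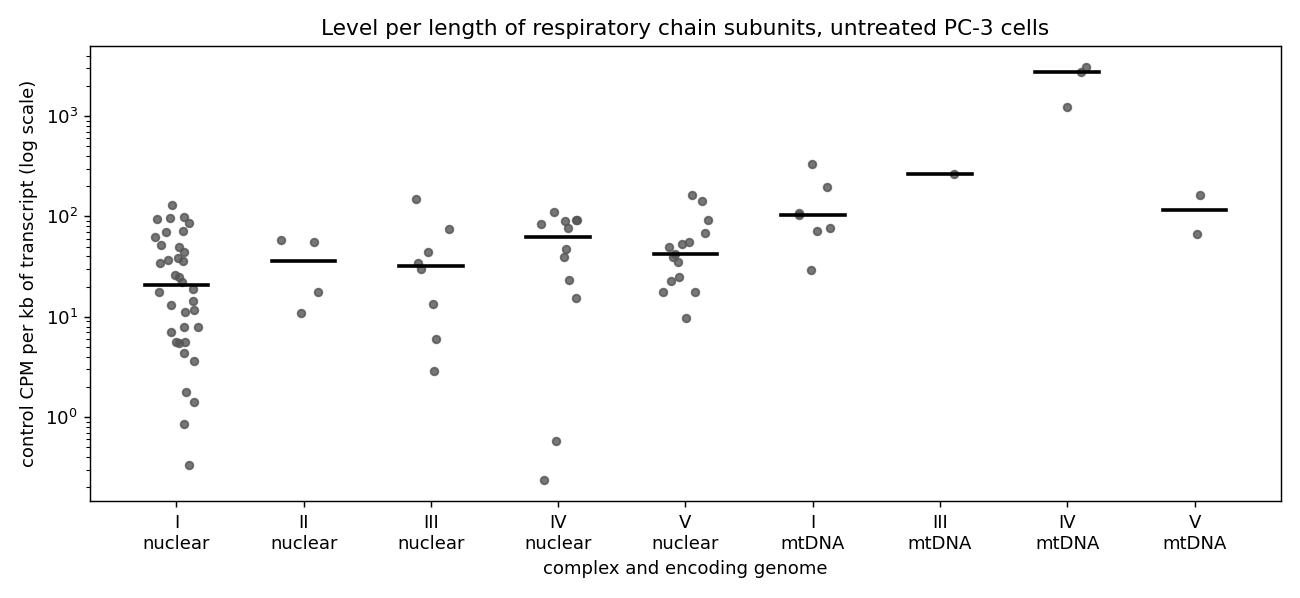
Level per length of each subunit in the control, as CPM per kb of its transcript on a log axis, by complex and encoding genome (points, subunits; bars, medians). The 3 mitochondrial subunits of complex IV sit at 1242 CPM per kb or more, and the nuclear medians lie between 20.7 and 61.7 CPM per kb.

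Large gaps between subunits of 1 complex should be read with the annotation in mind, because 10 nuclear subunits had under 5 CPM in the control (NDUFA2, NDUFA7, NDUFA9, NDUFA11, NDUFA13, NDUFB8, NDUFV2, UQCR11, COX6B2 and COX7B2). Of these, 8 share more than 5% of their exon bases with another gene on the same strand, compared with 12 of the 66 subunits at 5 CPM or more. How reads in shared bases were assigned is not given in the sources used here, so the levels of these subunits are uncertain.

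With BenSer, most nuclear encoded members lay below the control, and most mitochondrially encoded members lay above it. The median difference of the 81 nuclear members was -0.22, with 72 of them below 0, whereas the median of the 13 mitochondrial members was 0.10, with 9 above 0. Of the nuclear members 33 were at least 1.2-fold lower and 1 was higher, and of the mitochondrial members 3 were higher and none was lower. Over all genes tested, 15% were lower and 10.4% were higher by this measure, with a median of -0.03. Among the 60 nuclear members with at least 10 CPM in the control, 28 were lower (median -0.24), compared with 19.6% of protein-coding genes above the same level (median -0.05). The counting interval lay below 0 for 62 nuclear members, where 25.8% of all genes did so. Both BenSer libraries were below both control libraries for 65 nuclear members and above them for 4, against 37.5% and 28.5% of all genes. Of the 60 nuclear members with at least 10 CPM, 54 had an interval below 0 and 1 above it. This was 90% and 1.67%, against 42.2% and 26.6% of protein-coding genes above the same level. Both libraries were below the control for 55 and above for 1 (91.7% and 1.67%, against 49.0% and 32.7%). With libraries entered as replicates, edgeR called 51 nuclear members lower and 2 higher and 1 mitochondrial member lower and 8 higher, where it called 17.6% and 18.3% of all genes. Of protein-coding genes with at least 10 CPM it called 31.1% lower and 29.3% higher. That test compares libraries and not treatments.

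With GPNA, the differences were small for members of both genomes. No member was at least 1.2-fold higher and 3 were lower (MT-CYB, MT-ATP8 and UQCR11), against 5.18% and 5.86% of all genes. The median was -0.06 for the nuclear members, -0.10 for the mitochondrial members and -0.03 for all genes. Among genes with at least 10 CPM in the control, the 60 nuclear members and the protein-coding genes both had a median of -0.06. Of the 13 mitochondrial members 12 had a counting interval below 0, as did 22 of the 81 nuclear members and 20.1% of all genes. All 13 have at least 10 CPM in the control, where 38.5% of protein-coding genes had such an interval. Both GPNA libraries lay below both control libraries for 53 members and above them for 10, against 34.4% and 22.4% of all genes, and edgeR called 9 members lower and 1 higher, against 8.25% and 6.9%. The 60 nuclear members can also be set against protein-coding genes of at least 10 CPM. Both libraries were below the control for 34 and above for 6 (56.7% and 10%, against 51.2% and 19.4%). Intervals lay below 0 for 21 and above 0 for 1 (35% and 1.67%, against 38.5% and 12.1%). In this set edgeR called 2 lower and 1 higher (3.33% and 1.67%, against 17.6% and 11.1%). No member was 1.5-fold higher or lower, where 0.34% and 0.0637% of all genes were. The GPNA and BenSer comparisons share the same control libraries, and the compounds were used at different concentrations.

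**Figure D2:**
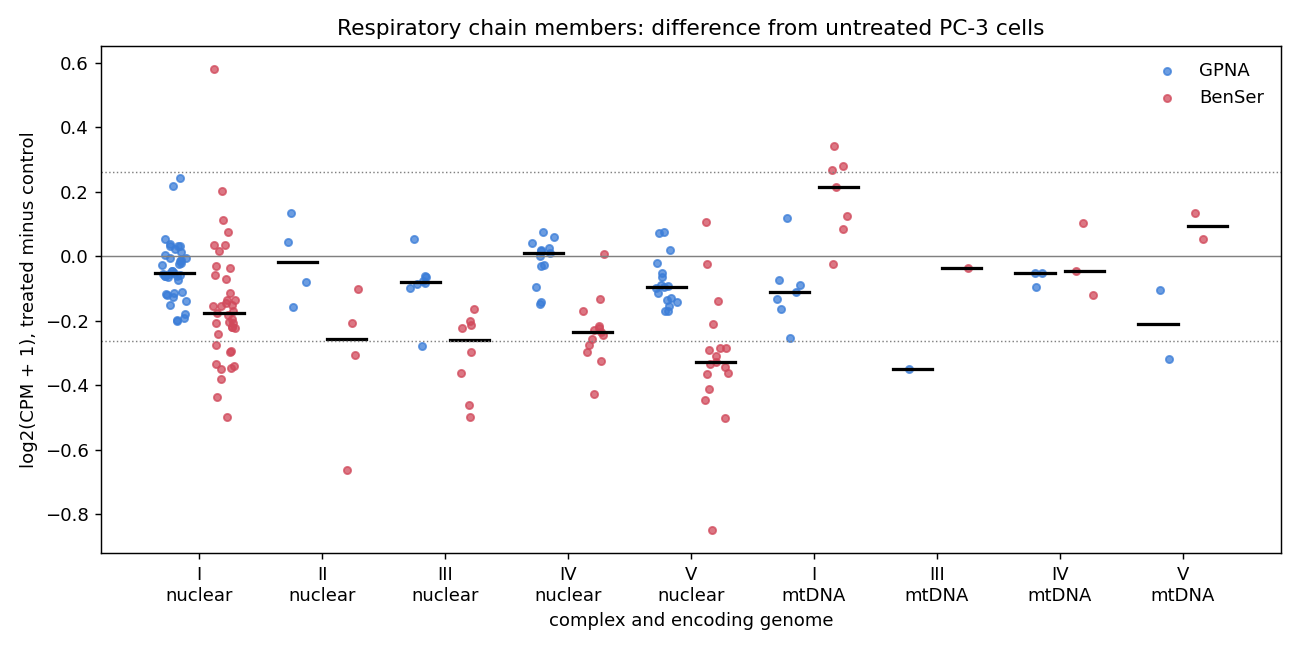
Difference from the control in log2(CPM + 1) for each member with GPNA (blue) and BenSer (red), by complex and encoding genome (points, members; bars, medians; dotted lines, 1.2-fold). With BenSer the nuclear medians lie between -0.33 and -0.17 and the mitochondrial median of complex I lies at 0.22.

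The summed level of the 81 nuclear members was 3521 and 3484 CPM in the control libraries, 3386 and 3374 CPM with GPNA, and 2873 and 2876 CPM with BenSer. The BenSer sums were the lowest and lay apart from those of the other groups, at 82.1% of the control mean, while GPNA stood at 96.5%. The 13 mitochondrial members summed to 8556 and 8479 CPM in control cells, 8095 and 8057 CPM with GPNA, and 8568 and 8588 CPM with BenSer. Here BenSer was at 100.7% of the control mean and GPNA at 94.8%. The ratio of mitochondrial to nuclear sums was 2.43 in both control libraries, 2.39 in both GPNA libraries, and 2.98 and 2.99 in the BenSer libraries. MT-CO1, MT-CO2 and MT-CO3 made up 85.0% to 87.3% of the mitochondrial sum in every library, so this ratio is mostly that of complex IV transcripts. The median over genes, which gives each member the same weight, was 0.33 higher on the log2 scale for mitochondrial than for nuclear members with BenSer, and -0.05 with GPNA. Because CPM is a share of all RNA sequenced, a change in RNA per cell cannot be told apart from a difference in either sum. The ratio is taken within each library and does not depend on the library total. It does not show which of the sums changed per cell.

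**Figure D3:**
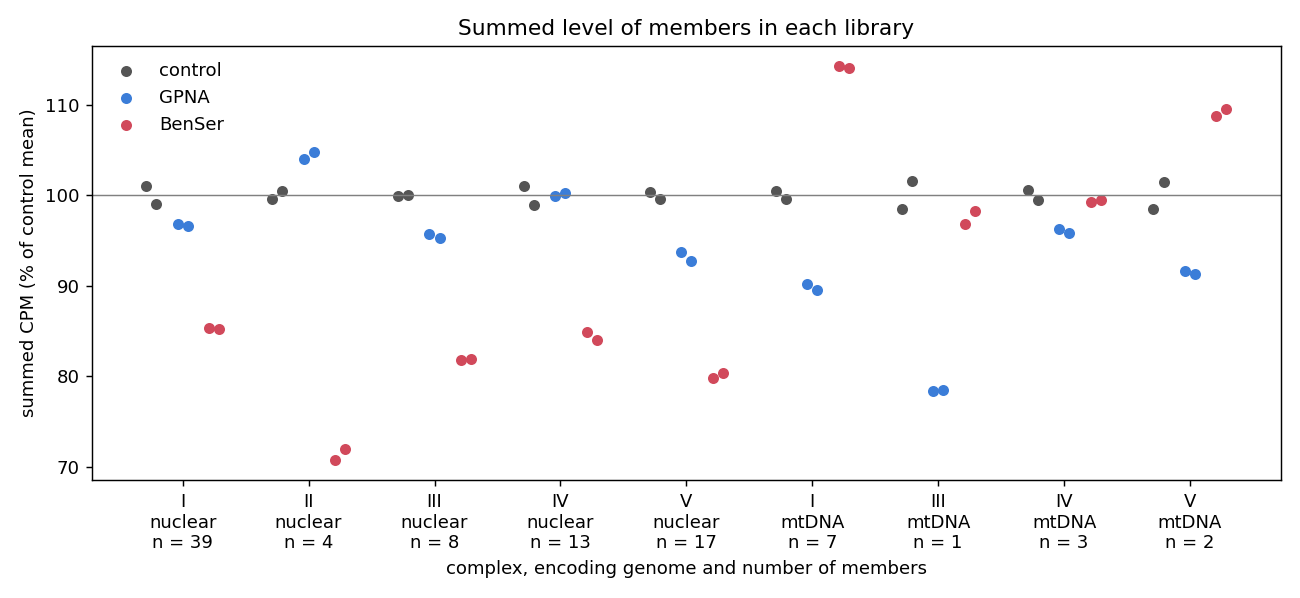
Summed CPM of the members of each complex and genome in each library, as a percentage of the mean of the control libraries (points, libraries; n, number of members). BenSer libraries lie at 71% to 85% of the control for the nuclear sums and at 114% for mitochondrial complex I.

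Of the 7 mitochondrial genes of complex I, 3 were at least 1.2-fold higher with BenSer and none passed that threshold with GPNA. The 3 were MT-ND2, MT-ND3 and MT-ND6. MT-ND2, a core subunit of the membrane arm, was at 73.8 and 75 CPM in control cells, 68.3 and 69.5 CPM with GPNA and 90.1 and 89.6 CPM with BenSer. Both BenSer libraries were above and both GPNA libraries below the control, with differences of 0.27 (0.21 to 0.33) for BenSer and -0.11 (-0.18 to -0.04) for GPNA. MT-ND3, another membrane arm subunit, was at 113 and 118 CPM in control cells, 106 and 109.9 CPM with GPNA and 141 and 139 CPM with BenSer. It had the same order of groups, with differences of 0.28 (0.23 to 0.33) for BenSer and -0.09 (-0.14 to -0.04) for GPNA. MT-ND4, a proton-pumping subunit, was at 274 and 266 CPM in control cells, 228 and 224 CPM with GPNA and 312 and 315 CPM with BenSer. Its groups did not overlap. It was above the control with BenSer by 0.22 (0.18 to 0.25), short of 1.2-fold, and below it with GPNA, at -0.25 (-0.29 to -0.22). MT-ND1 and MT-ND5 were also above the control with BenSer, by 0.13 (0.07 to 0.18) and 0.08 (0.04 to 0.13), and MT-ND4L differed by -0.02 (-0.12 to 0.07). Of the 7 complex I members of mtDNA, 6 therefore had an interval above 0 with BenSer, compared with 18.2% of all genes. Among protein-coding genes with at least 10 CPM in the control, as these 7 have, the share was 26.6%.

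MT-ND6, the subunit encoded on the light strand of mtDNA (chrM:14149-14673), was at 14.8 and 15.9 CPM in control cells, 16.4 and 17.1 CPM with GPNA and 19.0 and 20.4 CPM with BenSer. It was the one mitochondrial member above the control with GPNA, by 0.12 (-0.02 to 0.26), and had the largest mitochondrial difference with BenSer, at 0.34 (0.22 to 0.47). Whether strand was used in counting is not given in the sources used here, so reads of the opposite strand at MT-ND6 cannot be told apart from its own.

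**Figure D4:**
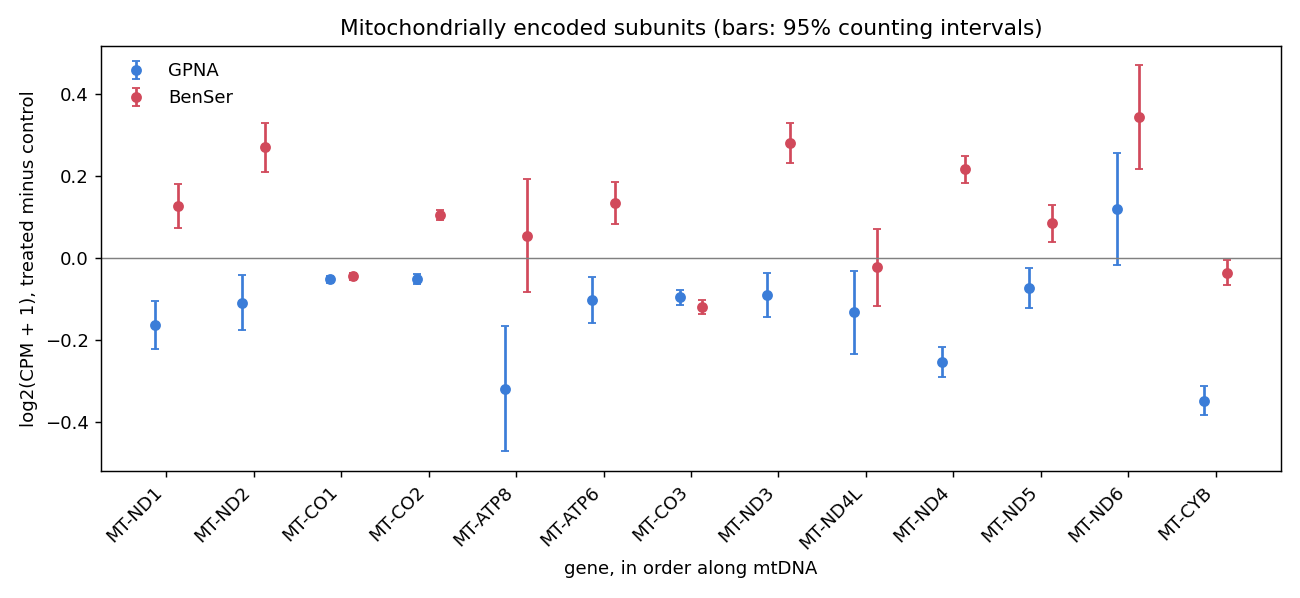
Difference from the control in log2(CPM + 1) for the 13 mitochondrially encoded subunits with GPNA (blue) and BenSer (red), in order along mtDNA (bars, 95% counting intervals). With BenSer 8 intervals lie above 0, and with GPNA 12 lie below 0.

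The mitochondrial subunits of complex IV, which form its catalytic core, lay close to the control. MT-CO1 was at 4261 and 4225 CPM in control cells, 4102 and 4082 CPM with GPNA and 4107 and 4118 CPM with BenSer. Both treated groups were below the control, at -0.05 each, with intervals of -0.06 to -0.04 for GPNA and -0.05 to -0.04 for BenSer, although the BenSer difference was 0.00 after scaling by the trimmed mean of M values (TMM). MT-CO2, which takes electrons from cytochrome c, was at 2144 and 2106 CPM in control cells, 2045 and 2056 CPM with GPNA and 2279 and 2291 CPM with BenSer. It was 0.10 (0.09 to 0.12) higher with BenSer and below the control with GPNA at -0.05 (-0.06 to -0.04). MT-CO3 was below the control in both, at -0.12 (-0.14 to -0.10) with BenSer and at -0.10 (-0.11 to -0.08) with GPNA.

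MT-CYB, the cytochrome b of complex III, was at 301 and 310.1 CPM in control cells, 239 and 239.7 CPM with GPNA and 295 and 300.1 CPM with BenSer. The GPNA libraries were far below the others, at -0.35 (-0.38 to -0.31). The BenSer libraries lay just under the control, at -0.04 (-0.07 to -0.00) as scaled here and 0.01 after TMM scaling. MT-ATP8, a small membrane subunit of complex V, was at 14.2 and 13.7 CPM in control cells, 11 and 11 CPM with GPNA and 14.1 and 15.0 CPM with BenSer. It was lower with GPNA at -0.32 (-0.47 to -0.17), and its BenSer libraries overlapped the control. MT-ATP6, the subunit that forms the proton channel, was lower with GPNA at -0.10 (-0.16 to -0.05) and higher with BenSer by 0.13 (0.08 to 0.18).

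Pairs of these genes overlap on mtDNA, and the shared bases are shown because reads in them cannot be given to 1 gene. The 46 bases in capitals belong to both MT-ATP8 and MT-ATP6, which is 22.2% of MT-ATP8, and the 7 bases in capitals belong to both MT-ND4L and MT-ND4. MT-ATP6 and MT-CO3 also share 1 base, at position 9207, which is not shown. Each sequence is printed 5′ to 3′ with 12 bases on either side, from the GRCh37 reference with its 16569-base mtDNA.
MT-ATP8 and MT-ATP6 (GRCh37, chrM:8515-8584, plus strand): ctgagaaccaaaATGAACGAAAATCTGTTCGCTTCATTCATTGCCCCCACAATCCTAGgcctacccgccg
MT-ND4L and MT-ND4 (GRCh37, chrM:10748-10778, plus strand): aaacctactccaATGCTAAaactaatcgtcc

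In complex II, which has no mitochondrial subunit, SDHA showed the largest difference between the compounds. SDHA encodes the flavoprotein that oxidises succinate and lies at chr5:218418-257197 in GRCh37. It was at 147 and 150.2 CPM in control cells, 162 and 165 CPM with GPNA and 94.3 and 92.9 CPM with BenSer. The 3 groups did not overlap, with GPNA highest and BenSer lowest, and the differences from the control were 0.14 (0.09 to 0.18) for GPNA and -0.66 (-0.71 to -0.61) for BenSer. SDHA was the one member with a counting interval above 0 with GPNA, where 9.78% of all genes had one. Its annotated exons share 21.7% of their bases with another gene on the same strand, and near copies of it exist, of which SDHAP1 was listed at 6.33 and 6.33 CPM in the control and 5.10 and 5.79 CPM with BenSer, and SDHAP3 at 1.59 and 1.47 CPM in the control and 1.71 and 2.07 CPM with BenSer.

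SDHB, the iron-sulphur subunit, was at 59.2 and 58.0 CPM in control cells, 55.9 and 54.9 CPM with GPNA and 45.9 and 48.4 CPM with BenSer. Its BenSer libraries were the lowest, at -0.31 (-0.38 to -0.23), and GPNA differed by -0.08 (-0.15 to -0.00). The membrane anchors showed smaller differences with BenSer, of -0.21 (-0.35 to -0.07) for SDHD and -0.10 (-0.21 to 0.01) for SDHC. With GPNA, SDHD differed by -0.16 (-0.30 to -0.01) and SDHC by 0.04 (-0.07 to 0.16). The summed level of complex II stood at 71.4% of the control with BenSer and at 104% with GPNA, and SDHA made up most of this sum.

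Nuclear members of complex I had the median closest to 0 with BenSer, at -0.17, with 10 of 39 lower and 1 higher. Most of the 10 nuclear subunits under 5 CPM belong to this complex, and log2(CPM + 1) understates changes near 1 CPM. The 39 also include NDUFA6-AS1 and NDUFA4L2, which are not subunits, and NDUFA4, now placed in complex IV. NDUFA4L2 was the 1 higher member. How far these genes set the median was not tested. NDUFB3, an accessory subunit of the membrane arm, was at 19.2 and 16.6 CPM in control cells, 15.3 and 16.8 CPM with GPNA and 12.9 and 11.9 CPM with BenSer. The BenSer libraries were lowest, at -0.50 (-0.63 to -0.37), while GPNA and control overlapped. NDUFA1, a small membrane arm subunit encoded on the X chromosome, was at 36.0 and 35.8 CPM in control cells, 34.7 and 34.1 CPM with GPNA and 26.5 and 26 CPM with BenSer. It was lower with BenSer at -0.44 (-0.53 to -0.34) and differed by -0.06 (-0.16 to 0.03) with GPNA. NDUFV1, which carries the NADH-binding flavin, differed by -0.38 with BenSer and 0.03 with GPNA. Other subunits stayed near the control with BenSer, among them NDUFB4 at -0.03 (-0.11 to 0.05) and NDUFB11 at 0.04 (-0.07 to 0.15). The lowest differences with GPNA among nuclear complex I members of at least 10 CPM were those of NDUFA12, at -0.20 (-0.31 to -0.08), and NDUFA8, at -0.20 (-0.33 to -0.07).

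All 8 nuclear members of complex III were below the control with BenSer, with a median of -0.26 and 4 lower by at least 1.2-fold. UQCRH was at 81.6 and 77.6 CPM in control cells, 75.6 and 75.5 CPM with GPNA and 57.5 and 57.8 CPM with BenSer. The BenSer libraries were clearly separate, at -0.46 (-0.53 to -0.39), and GPNA was at -0.08 (-0.14 to -0.01). UQCRFS1, the Rieske iron-sulphur protein, differed by -0.36 (-0.45 to -0.27) with BenSer and -0.08 (-0.17 to 0.01) with GPNA. The core proteins UQCRC1 and UQCRC2 differed less with BenSer, by -0.22 (-0.27 to -0.17) and -0.20 (-0.27 to -0.13), and UQCR10 by -0.16 (-0.25 to -0.08). UQCR11 was low in all libraries, at 3.70 and 3.81 CPM in control cells, 3.02 and 2.83 CPM with GPNA and 2.36 and 2.38 CPM with BenSer. Both compounds lay below the control here, at -0.28 (-0.52 to -0.03) with GPNA and -0.50 (-0.74 to -0.26) with BenSer.

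In complex IV, 12 of 13 nuclear members were below the control with BenSer (median -0.23) and 4 were lower by at least 1.2-fold. With GPNA the median was 0.01. COX5A, an accessory subunit on the matrix side, was at 18.7 and 17.1 CPM in control cells, 15.9 and 16.4 CPM with GPNA and 13.9 and 12.2 CPM with BenSer. The groups did not overlap, and the differences were -0.43 (-0.56 to -0.30) with BenSer and -0.14 (-0.27 to -0.01) with GPNA. COX6C followed at -0.33 (-0.39 to -0.26) and COX8A, a small membrane-spanning subunit, at -0.27 (-0.39 to -0.16), while with GPNA they were at -0.03 (-0.09 to 0.03) and 0.08 (-0.04 to 0.19). COX4I1, a regulatory subunit that binds ATP, differed by -0.17 (-0.24 to -0.10) with BenSer and 0.01 (-0.06 to 0.08) with GPNA. COX6A1 was at 22.8 and 19.2 CPM in control cells, 22.2 and 19.1 CPM with GPNA and 18.4 and 17.2 CPM with BenSer, so that its control libraries spread more widely than most. Without control library 1 its GPNA difference was 0.10 in place of -0.03, and its BenSer difference was -0.11 in place of -0.23.

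Complex V held the largest number of lower members with BenSer, 13 of 17, with a median of -0.33. ATP5D, the delta subunit of the central stalk (chr19:1241745-1244824 in GRCh37), was at 17.9 and 17.5 CPM in control cells, 15.5 and 16.1 CPM with GPNA and 9.48 and 9.30 CPM with BenSer. Its BenSer libraries were the lowest by far, at -0.85 (-0.99 to -0.71), and GPNA was at -0.15 (-0.29 to -0.02). With SDHA it was the only member at least 1.5-fold lower, where 1.58% of all genes were, and no member was 1.5-fold higher, where 1.96% were. ATP5O, a subunit of the peripheral stalk, was at 32.2 and 31.7 CPM in control cells, 30.1 and 31.5 CPM with GPNA and 22.2 and 22.4 CPM with BenSer. It was lower with BenSer, at -0.50 (-0.60 to -0.40), and GPNA was close to the control, at -0.05 (-0.15 to 0.05). The catalytic beta subunit ATP5B was at 285 and 284 CPM in control cells, 253 and 253 CPM with GPNA and 219 and 223 CPM with BenSer. Its groups stood in the same order, at -0.17 (-0.20 to -0.13) with GPNA and -0.36 (-0.40 to -0.33) with BenSer. The alpha subunit ATP5A1 differed by -0.41 with BenSer and -0.09 with GPNA. Of the membrane part, ATP5L was at -0.33 (-0.41 to -0.24) with BenSer and 0.02 (-0.06 to 0.10) with GPNA, and ATP5J2 was at -0.02 (-0.11 to 0.06) with BenSer and -0.09 (-0.18 to -0.00) with GPNA.

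**Figure D5:**
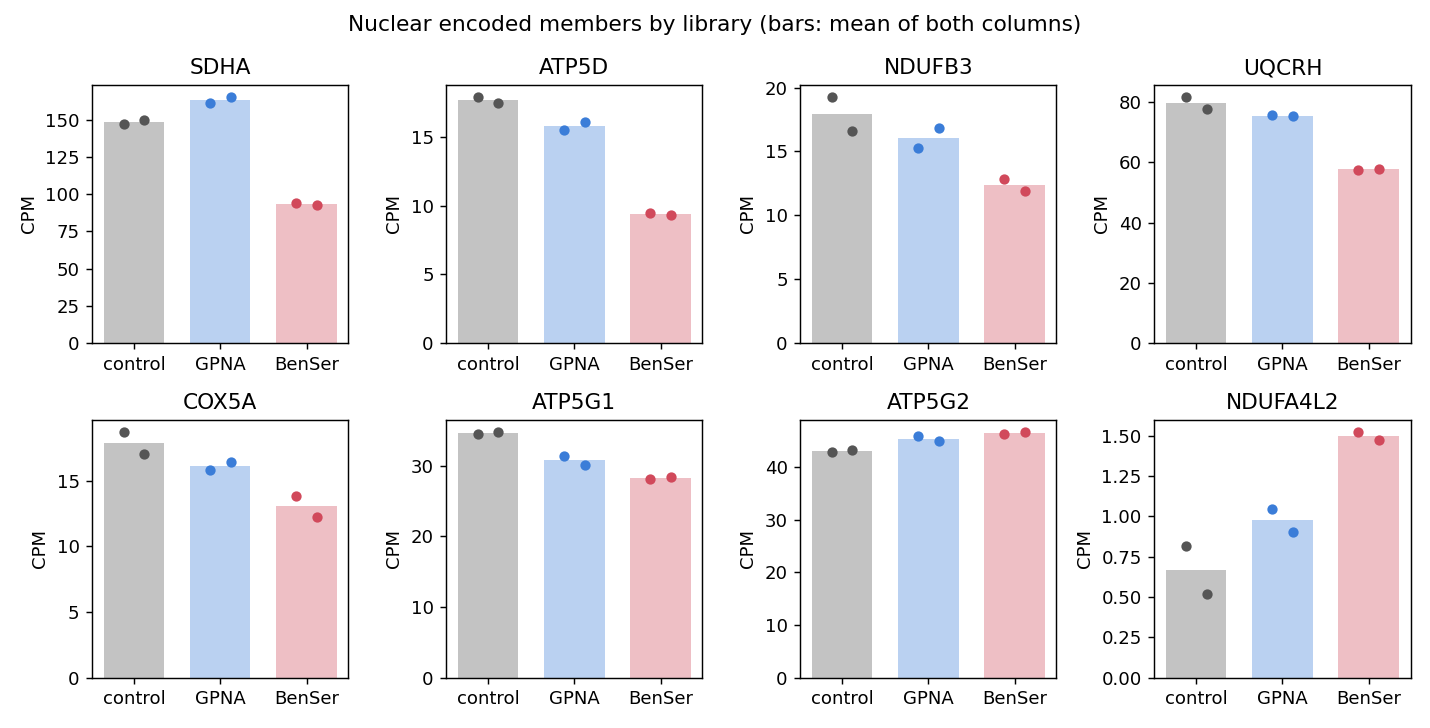
CPM of 8 nuclear encoded members in each library of the control (grey), GPNA (blue) and BenSer (red) groups (points, libraries; bars, mean of both). SDHA, ATP5D, NDUFB3, UQCRH, COX5A and ATP5G1 are lowest with BenSer, and ATP5G2 and NDUFA4L2 are highest.

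Paralogues that can take the same place in a complex did not all go the same way. Subunit c of ATP synthase, which forms its rotating ring, is encoded by 3 genes with one mature protein. ATP5G1 was at 34.6 and 34.8 CPM in control cells, 31.4 and 30.2 CPM with GPNA and 28.2 and 28.5 CPM with BenSer, which gives -0.17 (-0.27 to -0.07) for GPNA and -0.28 (-0.38 to -0.19) for BenSer. ATP5G3 was also below the control, at -0.13 (-0.21 to -0.05) with GPNA and -0.21 (-0.28 to -0.14) with BenSer. ATP5G2 was at 43.0 and 43.2 CPM in control cells, 46.0 and 44.9 CPM with GPNA and 46.3 and 46.7 CPM with BenSer. Every treated library was above the controls for this gene, at 0.07 (-0.01 to 0.16) with GPNA and 0.11 (0.03 to 0.19) with BenSer, and apart from NDUFA4L2 it was the one nuclear member whose interval lay above 0 with BenSer.

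NDUFA4, now known as a subunit of complex IV despite its name, was at 51.5 and 50.1 CPM in the control and 45.4 and 44.8 CPM with BenSer, a difference of -0.17 (-0.25 to -0.09). Its hypoxia-inducible relative NDUFA4L2 was near the floor of the data, at 0.818 and 0.520 CPM in control cells, 1.05 and 0.904 CPM with GPNA and 1.52 and 1.47 CPM with BenSer. It was the highest member with BenSer, at 0.58 (0.29 to 0.84), and at 0.24 (-0.06 to 0.53) with GPNA. With a pseudocount of 0.1 in place of 1 the BenSer difference was 1.05. COX6B1 differed by -0.22 (-0.30 to -0.13) with BenSer, and its testis-type paralogue COX6B2 was at 0.173 to 0.560 CPM in all libraries. COX7A2 was at -0.22 (-0.31 to -0.13) with BenSer, and COX7A2L, which helps complexes associate with each other, was at -0.13 (-0.21 to -0.05).

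The promoters of the nuclear members were searched for motifs of known regulators of respiratory genes, as a description of the sequence. RefSeq promoters of GRCh38.p14, from 250 bases before to 50 bases after the start, were found for 66 of the 81 genes. The motif CCGGAAG, the core bound by GABP and other ETS factors, was present on either strand in 30.3% of them, against 12.2% of all 27305 genes with a promoter given. It was found in 12 of the 26 members lower with BenSer (46.2%) and in 8 of the other 40 (20%). AAGATGGC, bound by YY1, was in 19.7% of members and 3.52% of all genes with a promoter given. It was in 23.1% of the members lower with BenSer and in 17.5% of the others. An NRF1 motif, either its 10-base palindrome or a 12-base form with 1 free base, was in 12.1% of members and 2.44% of all genes with a promoter given. Among the members lower with BenSer it was in 11.5%, and among the others in 12.5%. The background of genes with a promoter was not limited to genes listed here, nor matched to the members in level. The lower and the other members were not matched in level either, and a link between motif and difference was not tested. A match in these windows does not show binding.

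The promoters of 4 of the lower members are shown with their motifs in capitals, because they hold each kind of match. They were picked for this and do not stand for all lower members. The promoters of NDUFB3, UQCRFS1 and COX5A, also lower with BenSer, hold no match and are not shown. That of SDHA has the longer NRF1 motif, SDHB has CCGGAAG and AAGATGGC, UQCRH has CCGGAAG on the other strand, read here as CTTCCGG, and ATP5C1, the gamma subunit of ATP synthase, has the NRF1 palindrome. They are printed 5′ to 3′ on the strand of the gene.
SDHA promoter (GRCh38.p14, chr5:218070-218369, plus strand): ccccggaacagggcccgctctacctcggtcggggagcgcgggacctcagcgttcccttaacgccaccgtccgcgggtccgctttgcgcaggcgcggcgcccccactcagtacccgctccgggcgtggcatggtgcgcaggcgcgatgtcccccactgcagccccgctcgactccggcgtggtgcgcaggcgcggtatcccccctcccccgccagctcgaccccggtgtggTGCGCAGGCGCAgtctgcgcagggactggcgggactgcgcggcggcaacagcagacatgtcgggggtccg
SDHB promoter (GRCh38.p14, chr1:17053983-17054282, minus strand): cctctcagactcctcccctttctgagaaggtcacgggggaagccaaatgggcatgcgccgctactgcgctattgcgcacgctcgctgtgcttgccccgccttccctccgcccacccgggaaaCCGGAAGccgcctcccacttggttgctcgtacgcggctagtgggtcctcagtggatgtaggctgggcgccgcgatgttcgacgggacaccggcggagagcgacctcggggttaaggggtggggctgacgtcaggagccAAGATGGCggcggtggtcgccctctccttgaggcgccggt
UQCRH promoter (GRCh38.p14, chr1:46303448-46303747, plus strand): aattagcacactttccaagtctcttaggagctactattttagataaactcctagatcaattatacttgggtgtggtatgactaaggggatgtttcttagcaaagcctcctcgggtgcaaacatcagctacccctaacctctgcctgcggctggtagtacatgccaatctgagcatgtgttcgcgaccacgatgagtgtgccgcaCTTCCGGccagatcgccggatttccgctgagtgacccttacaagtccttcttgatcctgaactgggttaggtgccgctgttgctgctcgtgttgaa
ATP5C1 promoter (GRCh38.p14, chr10:7787927-7788226, plus strand): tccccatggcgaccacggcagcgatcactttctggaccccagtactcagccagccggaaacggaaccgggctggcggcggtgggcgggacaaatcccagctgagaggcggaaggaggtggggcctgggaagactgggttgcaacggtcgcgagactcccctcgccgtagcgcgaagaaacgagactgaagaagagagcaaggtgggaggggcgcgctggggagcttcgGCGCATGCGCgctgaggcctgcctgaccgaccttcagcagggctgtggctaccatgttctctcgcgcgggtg

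Other genes of the pathway were described by group. Of 25 listed genes of electron carriers, their synthesis, dehydrogenases feeding the chain and exchange across the membrane, 11 were lower with BenSer (44%, against 15% of all genes). In this group 1 was higher (4%, against 10.4%), and the median was -0.24. The group holds CYC1 and NDUFAB1, subunits of complexes III and I that the name rule missed. They differed by -0.43 and -0.33 with BenSer and by -0.18 and -0.09 with GPNA. CYCS, cytochrome c itself, was at 109 and 103 CPM in control cells, 94.3 and 93.1 CPM with GPNA and 66.3 and 66.4 CPM with BenSer. It was lowest with BenSer, at -0.67 (-0.73 to -0.61), and intermediate with GPNA, at -0.17 (-0.23 to -0.12). COQ2, an enzyme of ubiquinone synthesis, was at -0.69 (-0.84 to -0.54) with BenSer and -0.17 (-0.32 to -0.02) with GPNA. ETFDH, which feeds electrons from fatty acid oxidation into the chain, was at 0.17 (0.05 to 0.29) with BenSer and -0.03 (-0.17 to 0.10) with GPNA. With GPNA the group had 1 lower (4%, against 5.86% of all genes) and none higher, with a median of -0.07.

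Of 47 assembly factors with enough reads, 10 were lower with BenSer (21.3%, against 15% of all genes) and none higher, with a median of -0.17. With GPNA 1 was lower (2.13%, against 5.86% of all genes), with a median of -0.05. The lowest of at least 10 CPM were COA4, a complex IV factor, at -0.53 (-0.63 to -0.43), and FOXRED1, a complex I factor, at -0.49 (-0.61 to -0.37). The highest were COX19, a complex IV factor, at 0.26 (0.13 to 0.39), and TTC19, a complex III factor, at 0.12 (0.05 to 0.20). Of 30 genes of mtDNA expression and maintenance, 10 were lower with BenSer (33.3%, against 15% of all genes) and 3 with GPNA (10%, against 5.86%), with medians of -0.21 and -0.17 and none higher. SLIRP, which stabilises mitochondrial mRNA, was at -0.40 (-0.49 to -0.30) with BenSer and -0.17 (-0.27 to -0.08) with GPNA. ELAC2, which cuts mitochondrial tRNA ends, was at -0.37 (-0.43 to -0.30) with BenSer and -0.26 (-0.32 to -0.19) with GPNA. The highest with BenSer at 10 CPM or more were MTERF, which ends transcription of mtDNA, at 0.15 (0.01 to 0.29), and FASTKD5, which processes mitochondrial RNA, at 0.03 (-0.09 to 0.15). Of the 30 genes 27 were below 0 with BenSer.

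Among 13 nuclear regulators of respiratory genes, 3 were higher and 2 lower with BenSer (23.1% and 15.4%, against 10.4% and 15% of all genes), with a median of -0.04. With GPNA 1 was higher and 2 lower (7.69% and 15.4%, against 5.18% and 5.86%), with a median of -0.09. The coactivator PPRC1 was at 23.9 and 24.5 CPM in control cells, 16.7 and 18.7 CPM with GPNA and 15.9 and 18.6 CPM with BenSer. Both treated groups lay below the control, at -0.43 (-0.55 to -0.31) for GPNA and -0.46 (-0.58 to -0.35) for BenSer, and overlapped each other. The coactivator PPARGC1B was at -0.28 (-0.43 to -0.13) with GPNA and -0.49 (-0.63 to -0.34) with BenSer. GABPB2, a subunit of GABP, was at 0.21 (0.06 to 0.37) with GPNA and 0.37 (0.23 to 0.52) with BenSer. NFE2L2, the regulator of the oxidative stress response, was at -0.09 (-0.19 to 0.01) with GPNA and 0.33 (0.24 to 0.42) with BenSer.

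The mitochondrial rRNAs are mtDNA transcripts too, and how the removal of rRNA from total RNA libraries bears on their level was not tested. MT-RNR1 differed by -0.13 (-0.15 to -0.11) with GPNA and 0.03 (0.00 to 0.05) with BenSer, and MT-RNR2 by 0.06 (0.04 to 0.07) with GPNA and 0.16 (0.15 to 0.17) with BenSer. The tRNA gene MT-TP, on the light strand, was at -0.16 (-0.21 to -0.10) with GPNA and -0.24 (-0.29 to -0.18) with BenSer.

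Compared directly, at 10 mM BenSer against 1 mM GPNA, the mitochondrial members had a median of 0.24 and the nuclear members one of -0.18. Of the members 7 were higher with BenSer and 22 lower, where 10.5% and 11% of all genes were. At 1.5-fold 2 members were lower, SDHA and ATP5D, and none higher, against 0.813% and 1.05%, and edgeR called 47 lower and 13 higher, against 15.9% and 17.8%. All 7 mitochondrial members of complex I were above the GPNA level, with a median of 0.29, and all 13 nuclear members of complex IV were below it, with a median of -0.24. SDHA had the largest difference, at -0.80. This comparison does not use the control libraries, and the concentrations differ, so it does not compare the compounds at a matched dose.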

How the data were processed

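RNA was measured in PC-3 cells, 2 labelled libraries per group. The authors mapped the reads to hg19/GRCh37.p13 with TopHat2 and scaled reads per gene to library size, and the submitters' processing notes also name Bowtie2, HTSeq 0.6.2p2 and DESeq. The authors deposited CPM values in 2 tables. All values (100%) were whole numbers of reads over the library total within 0.001 reads, so reads were recovered. The columns of log fold changes, p-values and FDR hold the authors' own comparisons and were not used. Each table has 4 columns per group, and 8 of the 16 value columns (6 distinct) match no label and were not used. The methods of the study speak of 4 replicates per group, and how the columns relate to cultures is not given in the sources used here. Treatment doses come from the paper.

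The mean CPM of columns 1 and 2 was compared as log2(CPM + 1), leaving out genes whose mean reads were under 5 in both groups, with exact Clopper-Pearson 95% intervals. Intervals cover counting error only. Since the columns of a group differ by little more than sampling, edgeR (4.0.16), DESeq2 (1.42.0) and limma (3.58.1) on them compare libraries, not treatments, and served as alternatives, with Benjamini-Hochberg adjusted p under 0.05. edgeR's quasi-likelihood test called 2853 genes with GPNA and 6803 with BenSer. On simulated BenSer and control data with 200 genes changed 1.5-fold among 18696, a cut of 1.2-fold found 199 together with 315 unchanged genes, and edgeR found 197 and 7. Reads were drawn from the control means with sampling error only, and changed genes were taken from those of at least 5 CPM. The simulation therefore does not cover variation between cultures or changes in genes of lower level. Positions, lengths and shared exons come from GENCODE 44 lifted to GRCh37, and promoters from RefSeq (GRCh38.p14). MT-ATP6 and MT-ATP8 end in P and a digit but are no pseudogenes and were kept. Some cell type markers are not reported here. The members, gene lists and alternatives were chosen with earlier results of these data known. Genes named are all mitochondrial members, all SDH genes, paralogue groups, nuclear members past 1.5-fold, and the highest and lowest differences per complex or list at 10 CPM or more, and further members were named after their values were seen. Python 3.11.15, numpy 2.4.6, pandas 2.3.3, scipy 1.17.1, R 4.3.3 and matplotlib 3.10.9 were used.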

Additional observations from a re-analysis of the deposited data

How the results depend on the processing

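No called difference changed direction. The nuclear and mitochondrial medians kept their sign under every alternative run, whereas the medians of complexes II and IV with GPNA, -0.02 and -0.01, were 0.02 and 0.02 after TMM scaling. The alternatives were a pseudocount of 0.1, no filter, a filter at 1 CPM, TMM and DESeq2 scaling, a total without mitochondrial genes, and subunits only. The scalings moved the median of all genes by under 0.1. With GPNA it was -0.0276 as scaled here and 0.0022 after TMM scaling, and with BenSer -0.0282 and 0.0028. Such a move is not small beside GPNA differences of about -0.05, as for MT-CO1 and MT-CO2, so their size depends on the scaling. Counts of members with GPNA (0 higher, 3 lower) became 2 and 6 with a pseudocount of 0.1, and 2 higher with a total without mitochondrial genes. At 1.5-fold there were 0 lower with GPNA, 0 higher and 2 lower with BenSer (from 4 and 33), and 0 and 2 between BenSer and GPNA (from 7 and 22). Adjusted p under 0.05 gave, higher and lower with GPNA, 1 and 9 by edgeR, 1 and 4 by DESeq2, and 1 and 21 by limma. With BenSer these were 10 and 52, 9 and 38, and 10 and 58, and between BenSer and GPNA 13 and 47, 9 and 37, and 11 and 46. The groups share only the replicate number, and with this replicate block edgeR called 1 and 7 with GPNA, 10 and 49 with BenSer, and 12 and 47 between the compounds. Leaving out 1 column at a time gave 0 to 2 higher and 3 to 4 lower members with GPNA, 3 to 5 and 30 to 38 with BenSer, and 7 to 9 and 20 to 24 between them. The GPNA count of higher members was 2 without control column 1 and 1 without either GPNA column. The nuclear medians then ran from -0.06 to -0.05 with GPNA, -0.26 to -0.22 with BenSer and -0.20 to -0.17 between them, and the mitochondrial ones from -0.12 to -0.10, 0.09 to 0.11 and 0.24 to 0.27. The cause of these shifts was not tested. Since each group was treated as 1 sample, variation between cultures was not estimated, and depth limits members under 5 CPM, such as COX6B2.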
